A study of Mus musculus with 9 samples.

Results

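Accessible chromatin was examined around 8 mouse genes that set how much insulin-like growth factor (IGF) is free to act: the pappalysin proteases Pappa and Pappa2, their inhibitors Stc1 and Stc2, and the IGF-binding proteins Igfbp2, Igfbp3, Igfbp4 and Igfbp5. A peak was counted for a gene when its centre lay in the gene body, on the mm10 assembly, or within 50 kb of either end. This took 110 of the 146,734 peaks in the deposited table, around 8 of 21,631 protein-coding genes. There were 18 peaks around Pappa, 26 around Pappa2, 3 around Stc1, 6 around Stc2, 11 around Igfbp2, 17 around Igfbp3, 29 around Igfbp4 and 7 around Igfbp5. All 7 peaks of Igfbp5 also lay in the window of its neighbour Igfbp2. All 110 peaks passed the filter on low values.

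The cells were D2A1-d, a mouse breast carcinoma line, profiled by ATAC-seq, in which a transposase inserts sequencing adapters into open chromatin, so that reads accumulate where DNA is accessible. The NTC group carried a non-targeting control hairpin and is labelled wild type, and the groups shMed4 #1 and shMed4 #4 each carried a different short hairpin RNA against Med4 and are labelled as Med4 knockdown. All groups share the D2A1-d background and the label untreated, and each has 3 libraries labelled as biological replicates. Med4 codes for a middle-module subunit of Mediator, the bridge between transcription factors and RNA polymerase II, and the study's title links it to metastatic dormancy. A hairpin acts on the transcript, so accessibility does not check the knockdown. Nothing used here says whether the replicates were transduced separately.

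IGF-1 and IGF-2 circulate and sit in the matrix bound to IGF-binding proteins, which keep them from the IGF-1 receptor. The secreted metalloproteases PAPP-A, encoded by Pappa, and PAPP-A2 cut these binding proteins, PAPP-A mainly IGFBP-4 and IGFBP-5 and PAPP-A2 mainly IGFBP-3 and IGFBP-5, and so release the growth factor close to the cell. The stanniocalcins STC1 and STC2 bind the pappalysins and block them. In the mammary gland the same axis takes part in ductal growth and involution.

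The promoter windows that could be read held no peak of the deposited list. RefSeq (GRCm38.p6) gave the 250 bases upstream of a start for 6 of the 8 members, in 7 windows, and no peak overlapped any of them, whereas a peak overlapped 45.8% of 21,045 protein-coding windows of this length. The starts given for Pappa2, Igfbp3 and Igfbp4 lie inside the span of the gene, so their windows are not at its outer 5′ end. Of these windows 4 are shown, 1 for each inhibitor or protease that has an entry and for the 2 binding proteins with the most peaks, because the changes described later lie outside them. Letters are in lower case, with capitals for a match on either strand to 1 of 5 motifs. The TATA box was searched as TATAAA. The CCAAT box was searched under its own letters. The GC box was searched as GGGCGG. The AP-1 site was searched as TGANTCA. The E-box was searched as CACGTG.
Pappa2, chr1:158958176-158958425, minus strand: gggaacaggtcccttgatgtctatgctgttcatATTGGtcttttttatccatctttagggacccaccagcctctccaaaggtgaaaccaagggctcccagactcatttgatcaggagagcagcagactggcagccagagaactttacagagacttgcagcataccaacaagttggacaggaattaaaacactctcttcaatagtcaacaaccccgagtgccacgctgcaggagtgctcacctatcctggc
Stc2, chr11:31370062-31370311, minus strand: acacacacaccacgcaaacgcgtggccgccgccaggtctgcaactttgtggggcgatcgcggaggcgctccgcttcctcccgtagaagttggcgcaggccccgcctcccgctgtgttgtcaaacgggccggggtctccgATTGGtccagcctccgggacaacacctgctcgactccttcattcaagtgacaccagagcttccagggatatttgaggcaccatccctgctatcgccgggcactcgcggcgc
Igfbp3, chr11:7213924-7214173, minus strand: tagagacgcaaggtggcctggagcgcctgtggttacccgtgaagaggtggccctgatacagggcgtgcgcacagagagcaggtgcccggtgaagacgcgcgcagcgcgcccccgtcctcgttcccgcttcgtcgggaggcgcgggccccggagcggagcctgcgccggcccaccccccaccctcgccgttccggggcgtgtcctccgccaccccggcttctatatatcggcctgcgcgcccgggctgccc
Igfbp4, chr11:99040994-99041243, plus strand: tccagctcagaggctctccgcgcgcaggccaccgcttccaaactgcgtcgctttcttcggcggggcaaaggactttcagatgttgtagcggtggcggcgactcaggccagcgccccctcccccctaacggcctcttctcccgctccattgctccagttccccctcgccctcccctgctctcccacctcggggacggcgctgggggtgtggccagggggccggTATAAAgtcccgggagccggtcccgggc

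The Pappa2 window was poor in CpG, with 2 CpG and a GC content of 49.2%, against a median of 6 CpG over 32,851 windows of all genes. The other 3 were rich in CpG, with 24 in Stc2, 32 in Igfbp3 and 22 in Igfbp4. Pappa2 and Stc2 each held 1 CCAAT box, found in 33.8% of all windows, and Igfbp4 held a TATA box, found in 12.4%. No listed motif was found in the Igfbp3 window, and GC boxes, AP-1 sites and E-boxes occur in 32.7%, 6.75% and 6.02% of all windows. These letters describe the sequence and do not show binding.

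Around these genes the windows of both proteases gained accessibility at every peak, whereas those of most binding proteins and inhibitors were mixed or lost it. With both hairpins averaged, 57 of the 110 peaks were called higher than NTC, 35 were called lower and 18 were not called, by limma at a Benjamini-Hochberg adjusted p under 0.05 over all peaks. Over all 146,729 peaks tested, 27.9% were called higher and 26.2% lower in this comparison, 54.1% in all. The genes were chosen by their role in the IGF axis with the folds of their peaks against NTC known, so these counts describe them, and nothing is read from them by a test. With shMed4 #1 the counts were 57 higher and 27 lower, beside 27.9% and 24.9% of all peaks, 52.7% in all. With shMed4 #4 they were 54 higher and 34 lower, beside 26.2% and 24.3% of all peaks, 50.4% in all. Because the 2 comparisons share the NTC libraries, their values stand side by side and their likeness is not used as a result.

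A stricter count took the peaks called in the same direction with each hairpin, which held for 17.6% of all peaks in the higher direction and 13.5% in the lower. Of the peaks around members, 51 were called higher with each hairpin and 22 lower with each. The 18 peaks of Pappa and the 26 of Pappa2 gave 44 of the 51. Another 3 peaks, 1 around Stc2 and 2 around Igfbp3, were called higher with shMed4 #1 and lower with shMed4 #4, beside 3.17% of all peaks. The change of each peak is plotted by gene.

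**Figure D1:**
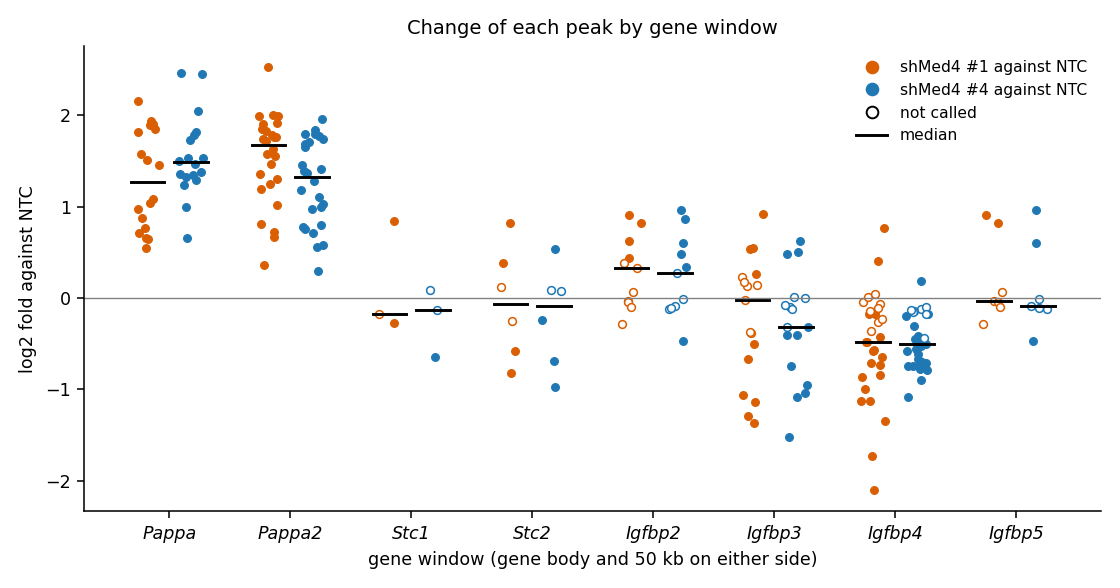
Log2 fold of every peak against NTC for shMed4 #1 (orange) and shMed4 #4 (blue), by gene window; filled points were called at an adjusted p under 0.05, open points were not, and bars are medians. All points of Pappa and Pappa2 lie above 0, with medians of 1.27 and 1.49 for Pappa and 1.68 and 1.33 for Pappa2, while the Igfbp4 medians are -0.48 and -0.50.

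Pappa, which encodes PAPP-A, spans chr4:65124174-65357509. All 18 peaks of its window, 10 in the gene body and 8 on the lower-coordinate flank, were higher with each hairpin, and in all 18 the 6 shMed4 libraries lay above the 3 NTC libraries, as in 19.0% of all peaks. The median log2 fold was 1.27 with shMed4 #1 and 1.49 with shMed4 #4, beside -0.01 and -0.02 over all peaks. Of the 18 peaks, 15 were at least 2-fold higher with the hairpins averaged, which 5.97% of all peaks reached with a call. Most started low: 17 of the 18 lay below the NTC median of all peaks, and their NTC means ranged from 11.7 to 353 normalised reads. Peaks with an NTC mean under 100 were called higher with each hairpin more often than others over the whole table, 22.0% against 15.8%.

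The most accessible peak around Pappa, chr4:65078313-65078814, lies 45.6 kb below the gene in coordinates. Its normalised reads were 338, 388 and 332 in NTC, 1551, 1628 and 1542 in shMed4 #1, and 1324, 1218 and 1187 in shMed4 #4. The 3 groups did not overlap, with NTC lowest and shMed4 #1 highest. The log2 fold was 2.16 (SE 0.06) with shMed4 #1 and 1.82 (SE 0.06) with shMed4 #4.

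Inside the gene, the peak at chr4:65159498-65159999 held 132, 143 and 127 normalised reads in NTC. It held 435, 493 and 498 in shMed4 #1, and 578, 583 and 517 in shMed4 #4. NTC was again lowest and the hairpins again did not overlap, but here shMed4 #4 was highest, with log2 folds of 1.82 (SE 0.09) and 2.05 (SE 0.09) for #1 and #4.

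The peak at chr4:65242598-65243099, also in the gene body, held 69.4, 64.7 and 58.1 normalised reads in NTC. It held 200.1, 169 and 163 in shMed4 #1, and 407, 347 and 318 in shMed4 #4. This site was 2.77-fold and 5.57-fold higher with #1 and #4, and no group overlapped another. The plot along both protease genes shows this pattern peak by peak.

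**Figure D2:**
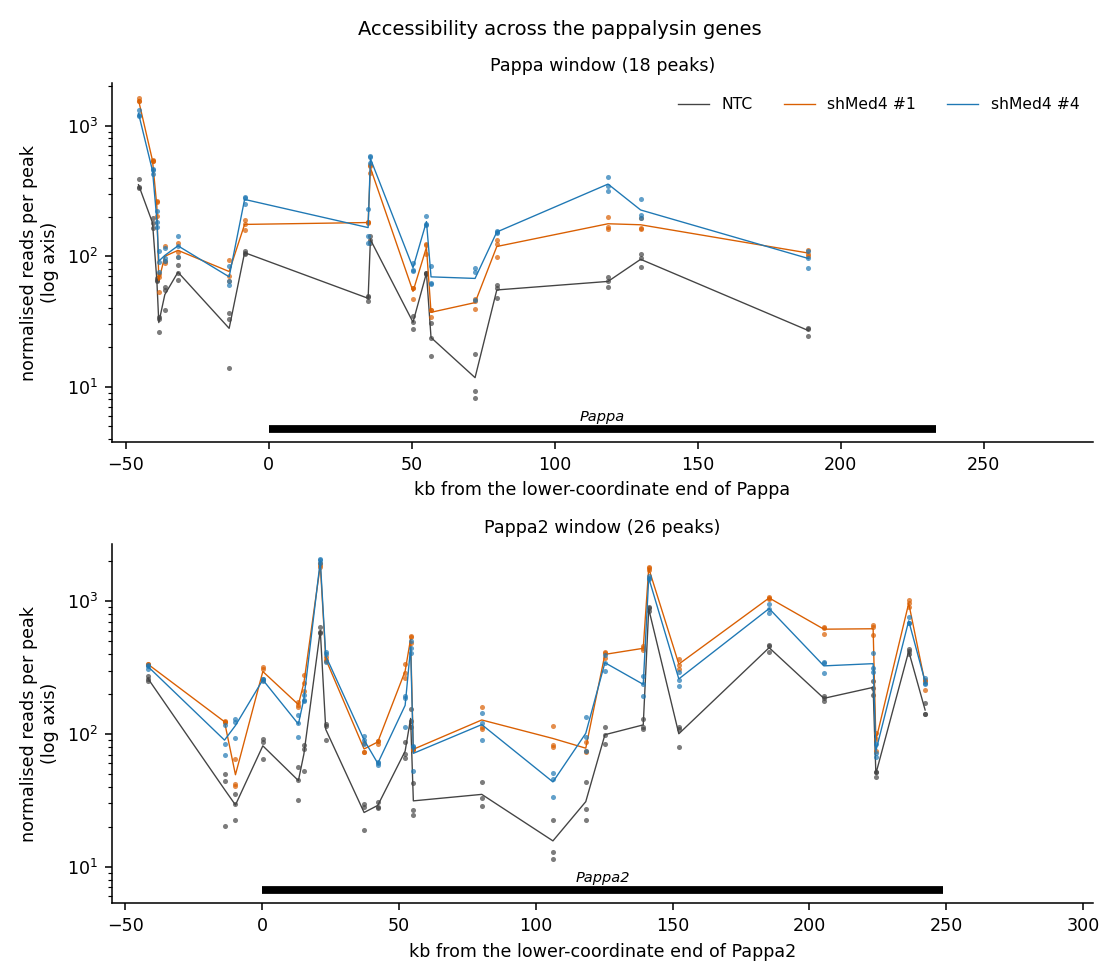
Normalised reads per peak (log axis) along the Pappa and Pappa2 windows, by distance in kb from the lower-coordinate end of each gene; points are libraries, lines join group means and the black bar is the gene body. At all 18 Pappa peaks and all 26 Pappa2 peaks the 6 shMed4 libraries lie above the 3 NTC libraries.

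Pappa2 encodes PAPP-A2 and spans chr1:158711727-158960451 on the minus strand. All 26 peaks of its window, 22 of them in the gene body, were higher with each hairpin, as in 17.6% of all peaks. In all 26 the 6 shMed4 libraries lay above the 3 NTC libraries, as in 19.0% of all peaks. The median log2 fold was 1.68 with shMed4 #1 and 1.33 with shMed4 #4. With the hairpins averaged 21 of the 26 peaks were at least 2-fold higher, which 5.97% of all peaks reached with a call. NTC means reached from 15.7 to 876 normalised reads, and 19 of the 26 lay below the NTC median of all peaks.

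The most accessible Pappa2 peak on average, chr1:158732974-158733475, lies in the gene body 225 kb from the start of the gene. It held 579.5, 641 and 583 normalised reads in NTC, 1939, 1874 and 1796 in shMed4 #1, and 2029, 2068 and 1954 in shMed4 #4. Both hairpin groups lay above NTC without overlap, at log2 folds of 1.64 (SE 0.06) and 1.75 (SE 0.06). The hairpins did not differ by the adjusted threshold here, with a log2 difference of 0.11 (SE 0.06) and an adjusted p of 0.114 by limma.

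The 3 largest averaged changes around Pappa2 were also in the gene body. At chr1:158765796-158766297 the reads were 114, 153 and 126 in NTC, 539, 543 and 482 in shMed4 #1, and 442, 407 and 497 in shMed4 #4. At chr1:158837122-158837623 they were 84.7, 98.6 and 113 in NTC, 414, 406 and 374 in shMed4 #1, and 341, 393 and 299.9 in shMed4 #4. These sites were 3.98-fold and 4.03-fold higher with #1, and 3.43-fold and 3.49-fold higher with #4, and at both the hairpin groups overlapped each other. The third, chr1:158817938-158818439, was nearly closed in NTC, at 12.9, 22.6 and 11.5 reads. It held 114, 82.7 and 80.3 reads in shMed4 #1 and 51.0, 46.0 and 33.5 in shMed4 #4, so that the 3 groups did not overlap.

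The raised peaks formed unbroken stretches. The 18 Pappa peaks belonged to a run of 20 neighbouring peaks, all called higher with each hairpin, from chr4:64952587 to chr4:65313102, a span of 361 kb. The 26 Pappa2 peaks were a run of their own, from chr1:158670113 to chr1:158954018, a span of 284 kb. Over the whole table there were 10 runs of at least 20 such peaks and 4 of at least 26. The Pappa2 run includes a peak inside Astn1, a neighbouring gene for an astrotactin of neurons, which was the weakest of the 26 at log2 folds of 0.36 and 0.30. Part of Astn2 falls in the Pappa window. A peak near a gene need not regulate it, and in bulk cells more open cells and more opening per cell cannot be told apart.

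The edges of the windows were not edges of the Pappa change. The last Pappa peak inside the window, 45.6 kb from the gene, had an averaged log2 fold of 1.99, and the nearest outside, at 70.6 kb, had 1.69. On the other side, the nearest peak outside, 120 kb away, was at -0.24. At Pappa2 the last peak inside, 41.4 kb from the gene, was at 0.33, and the nearest outside, at 57.0 kb, was at 0.28 and was not called. For Igfbp3 the values on the lower-coordinate side were 0.01 at 49.7 kb inside and -0.74 at 52.2 kb outside. On its higher-coordinate side they were 0.72 at 23.8 kb and 0.45 at 67.7 kb. For Igfbp4 the higher-coordinate side gave -0.13 at 46.4 kb inside and -0.55 at 50.4 kb outside. Its lower-coordinate side gave -0.69 at 48.7 kb inside and -0.15, not called, at 64.5 kb outside.

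The hairpins were also compared with each other, over the peaks of all members and then along the protease genes. Between shMed4 #4 and shMed4 #1, 20 of the 110 peaks were higher with #4 and 32 lower, beside 20.4% and 21.2% of all peaks, 41.6% in all. In the Pappa body 6 of 10 peaks were higher with #4 and 0 were lower, and on the Pappa flank 1 of 8 was higher and 3 were lower. In the Pappa2 body 0 of 22 were higher with #4 and 12 were lower. The median log2 difference, #4 minus #1, was 0.47 over the Pappa body and -0.26 over the Pappa2 body, beside -0.00327 over all peaks and -0.03 and -0.10 over the peaks of chromosomes 4 and 1. The difference between these 2 genes was not itself tested.

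**Figure D3:**
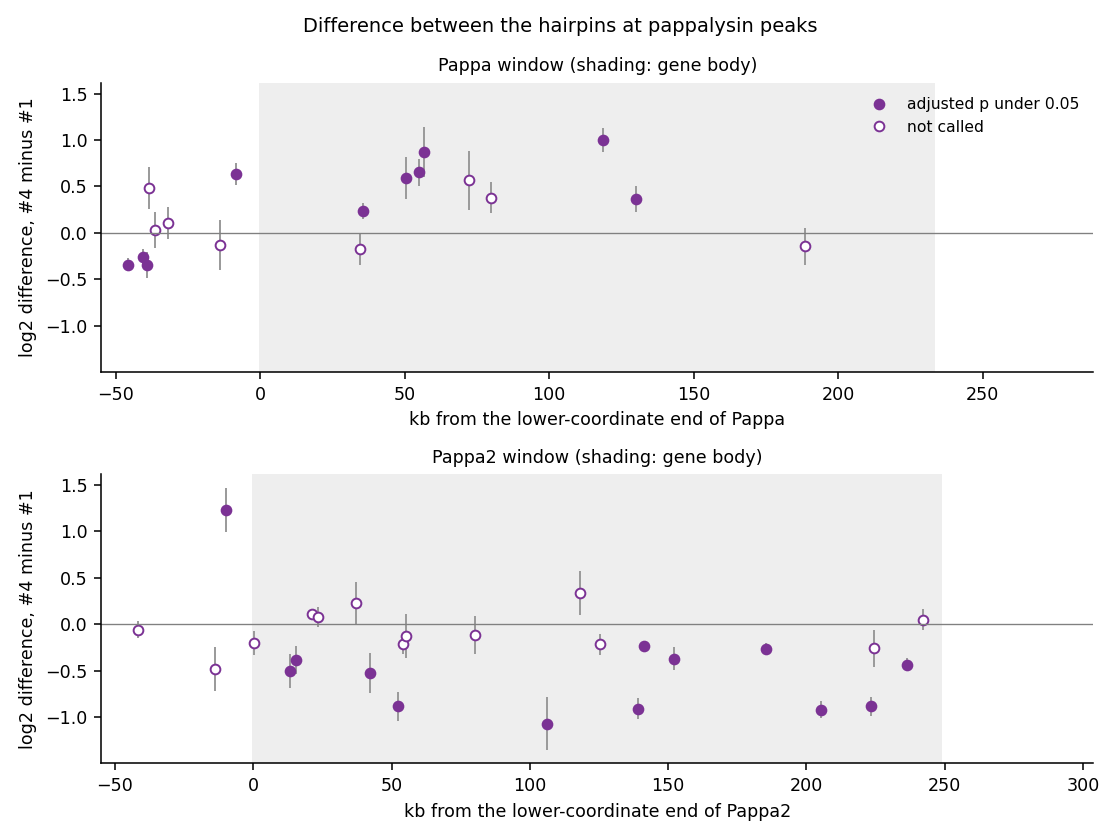
Log2 difference between the hairpins, #4 minus #1, at each peak of the Pappa and Pappa2 windows, by distance in kb from the lower-coordinate end of the gene; bars are standard errors, filled points have an adjusted p under 0.05 and shading marks the gene body. Filled points in the Pappa body lie above 0, up to 1.00, and those in the Pappa2 body lie below 0, down to -1.07.

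The largest hairpin difference of the Pappa window was at chr4:65242598-65243099, whose values are given above, at 1.00 (SE 0.13, adjusted p = 7.65e-08, limma). In the Pappa2 body, chr1:158917054-158917555 held 192, 188 and 177 normalised reads in NTC, 643, 634 and 571 in shMed4 #1, and 350.3, 341 and 286 in shMed4 #4. The 3 groups did not overlap, and #4 lay below #1 by a log2 difference of -0.92 (SE 0.09, adjusted p = 1.73e-10, limma). The Pappa2 window also held 1 peak higher with #4, chosen here after its values were seen, at chr1:158701356-158701857, 10.1 kb beyond the end of the gene. It held 22.6, 29.8 and 35.2 reads in NTC, 40.8, 42.2 and 64.9 in #1, and 131, 93.4 and 123 in #4. The log2 difference was 1.23 (SE 0.24, adjusted p = 6.66e-05, limma). The peaks of this paragraph were singled out by their hairpin differences, so these p-values only describe them.

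The stanniocalcin genes, which encode the pappalysin inhibitors, changed little or in mixed directions. Stc2, at chr11:31359441-31370061 on the minus strand, was the only member with a peak within 1 kb of a start in the RefSeq promoter table (of either end where no start was given). For Igfbp3 and Igfbp4 that start lies inside the gene's span, and peaks did lie near the outer 5′ ends. These were chr11:7215643-7216144, 395 bases from Igfbp3, and a peak over the lower-coordinate end of Igfbp4, described below. The Stc2 peak, chr11:31369245-31369746, lies 0.566 kb inside the gene and held 97.7, 97.6 and 104 normalised reads in NTC. It held 63.2, 41.4 and 67.1 in shMed4 #1 and 37.2, 53.7 and 63.5 in shMed4 #4, so all 6 shMed4 libraries lay below NTC. The peak fell by 0.82 (SE 0.22) with #1 and by 0.97 (SE 0.22) with #4 on the log2 scale, where gene-end peaks were called lower in 45.7% of cases and higher in 9.98%. The neighbouring Stc2 peak, chr11:31368356-31368857, held 116, 124 and 89.2 reads in NTC and 51.2 to 87.6 in the 6 shMed4 libraries, which lay below NTC by a small gap.

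Upstream of Stc2 the picture was different. The strongest peak, chr11:31382070-31382571, 12.3 kb upstream, held 2053, 2000.4 and 1954 reads in NTC, 2605, 2502 and 2721 in shMed4 #1, and 2067, 2145 and 2180.2 in shMed4 #4. It rose with #1, by a log2 fold of 0.38 (SE 0.05), and was not called with #4, at 0.09 (SE 0.05); the hairpins differed by -0.29 (SE 0.05, adjusted p = 8.03e-06, limma). At chr11:31403949-31404450, 34.1 kb upstream, the reads were 216, 212 and 215 in NTC, 416, 369 and 355 in shMed4 #1, and 202, 159 and 185 in shMed4 #4. Here #1 lay above NTC and #4 below it, with log2 folds of 0.82 and -0.24, and the hairpins differed by -1.06 (SE 0.10, adjusted p = 1.42e-10, limma).

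Stc1, at chr14:69029289-69041401, had no peak in its gene body. Its highest peak, chr14:69088984-69089485, 47.8 kb away, held 814, 833 and 827 normalised reads in NTC, 647, 651 and 747 in shMed4 #1, and 688, 801 and 771 in shMed4 #4. All shMed4 libraries were below NTC, with a call for #1 at a log2 fold of -0.28 (SE 0.07) and none for #4 at -0.13 (SE 0.07). The other 2 Stc1 peaks were called with 1 hairpin each, 1 higher with #1 and 1 lower with #4. No Stc1 peak was called in the same direction with each hairpin.

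Igfbp4, which encodes a substrate of PAPP-A, spans chr11:99040005-99052655 on the plus strand, and its window mostly lost accessibility. Of its 29 peaks, 23 were called lower with the hairpins averaged, 2 higher and 4 not called, beside 26.2% lower and 27.9% higher over all peaks. With each hairpin 15 were lower, beside 13.5% of all peaks. The median log2 fold was -0.48 with shMed4 #1 and -0.50 with shMed4 #4, beside -0.11 over the peaks of chromosome 11 with the hairpins averaged. The count lower with each hairpin depended on the settings. Among scalings it was 9 when values were centred on gene-end peaks, 11 with chromosome medians removed and 15 with equal totals. At an adjusted p under 0.01 it was 10. Without NTC replicate 1, or without shMed4 #1 replicate 1, it was 11. The count of 23 lower with the hairpins averaged also moved. It was 16 with gene-end centring, 17 with chromosome medians removed and 25 with equal totals. At an adjusted p under 0.01 it was 18, without NTC replicate 1 it was 17, and without NTC replicate 3 it was 18. All 4 peaks in the gene body were called lower with the hairpins averaged. Of the whole window, 3 peaks were called at least 2-fold lower, beside 0.96% of all peaks.

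With #1 and with the hairpins averaged, the largest loss of the window was at the 3′ end of Igfbp4, whereas with #4 it was inside Tns4, at chr11:99080795-99081296, with a log2 fold of -1.09. The peak chr11:99052615-99053116, 0.21 kb beyond the gene, held 174, 141 and 169 normalised reads in NTC, 45.6, 37.3 and 28.6 in shMed4 #1, and 103, 104 and 90.0 in shMed4 #4. The 3 groups did not overlap, and the site was lowest with #1, at log2 folds of -2.11 (SE 0.19) and -0.70 (SE 0.19). The hairpins differed by 1.41 (SE 0.19, adjusted p = 9.80e-08, limma). At chr11:99054533-99055034 the order was the same, with 137, 122 and 149.7 reads in NTC, 48.0, 38.9 and 35.2 in #1, and 79.6, 79.3 and 88.2 in #4. The peak over the lower-coordinate end of the gene, chr11:99039708-99040209, singled out here after its values were seen, held 1132, 1021 and 1081 reads in NTC, 942, 967 and 951 in #1, and 945, 1039.8 and 1028 in #4; #1 lay below NTC, and #4 overlapped both.

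Part of the Igfbp4 window belongs to its neighbours. Tns4, which encodes a tensin of focal adhesions, held 6 peaks, of which 5 were lower with each hairpin, in a run from chr11:99076737 to chr11:99083023. Within it chr11:99080795-99081296 held 894, 939 and 930.2 reads in NTC, 384, 337 and 367 in shMed4 #1, and 408, 449 and 443 in shMed4 #4, or 0.394-fold and 0.470-fold of NTC. The strongest peak of any member window, chr11:99076737-99077238, also lies in Tns4, at 7583, 7800.3 and 7812 reads in NTC, 6985, 6673 and 6898 in #1, and 6538, 6787 and 7213 in #4. It was 0.886-fold and 0.885-fold of NTC, without overlap. Top2a, the gene of DNA topoisomerase II alpha, held 9 peaks, 6 of them called lower with the hairpins averaged and 1 higher. Of the 14 peaks outside both neighbours 12 were called lower with the hairpins averaged, 1 higher and 1 not called.

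**Figure D4:**
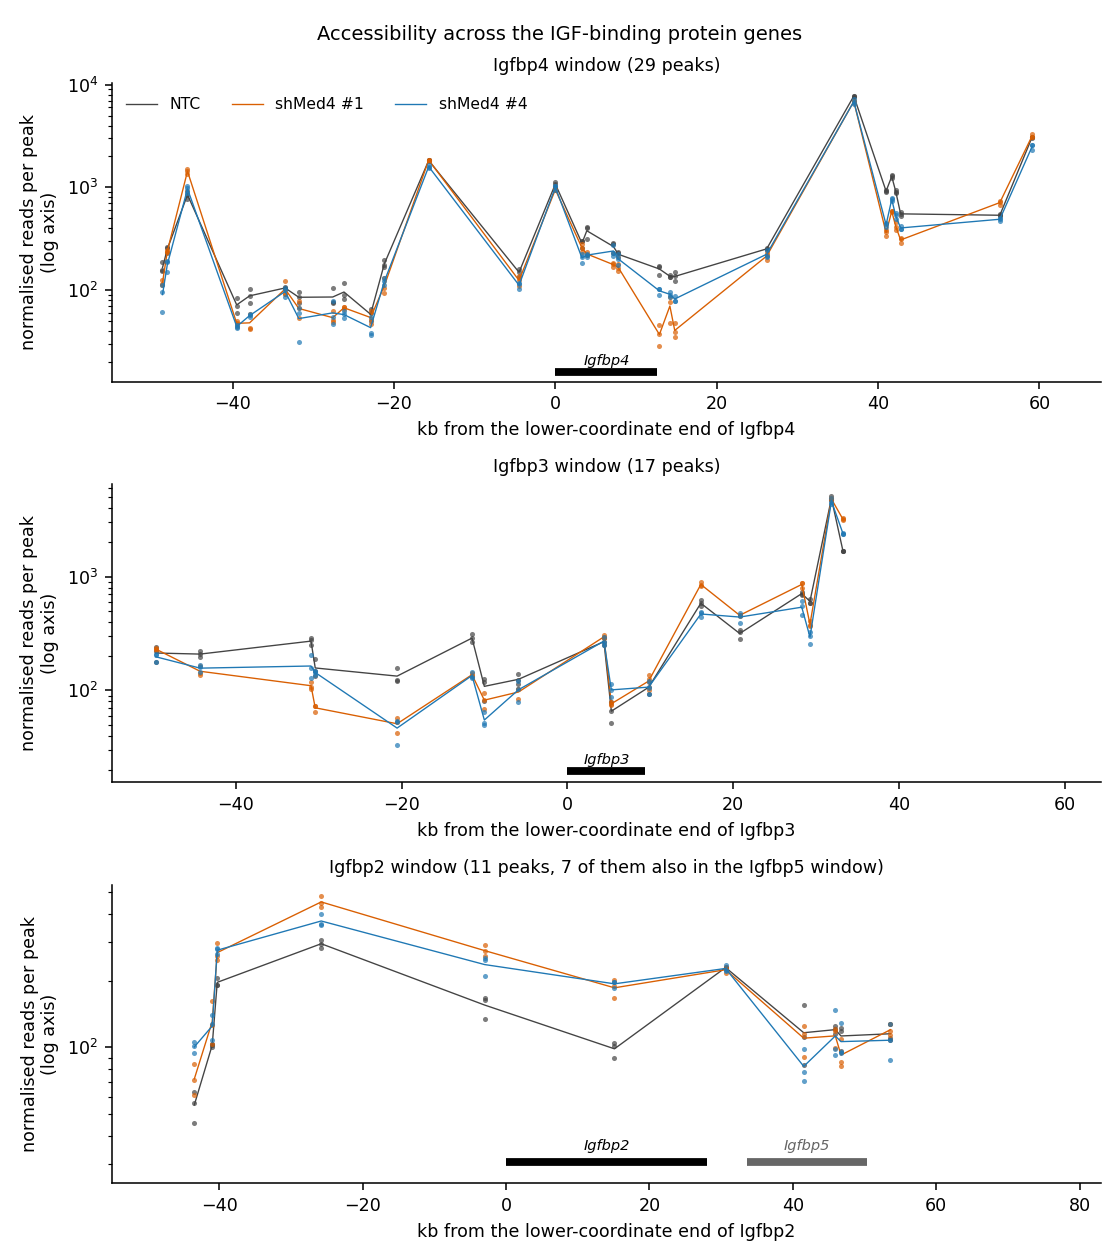
Normalised reads per peak (log axis) along the Igfbp4, Igfbp3 and Igfbp2 windows, by distance in kb from the lower-coordinate end of each gene; points are libraries, lines join group means and bars are gene bodies. The shMed4 lines run below NTC over most of the Igfbp4 window, below NTC on the left of Igfbp3, and above NTC on the left of Igfbp2.

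Igfbp3, a carrier of circulating IGF and a substrate of PAPP-A2, spans chr11:7206086-7215498 on the minus strand, and most of its lowered peaks lay downstream. Downstream of the gene, toward Adcy1 and Igfbp1, 7 of 8 peaks were called lower with the hairpins averaged and 0 higher. Upstream, 2 of 7 were called higher and 1 lower. Over all peaks 26.2% were called lower and 27.9% higher in this comparison, so the upstream share called higher was near that of all peaks. The 2 peaks in the gene body were not called with #1, and 1 of them was called higher with #4.

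The downstream loss was clear at chr11:7185276-7185777, with 157, 123 and 120.3 normalised reads in NTC, 57.6, 42.2 and 52.8 in shMed4 #1, and 53.6, 33.3 and 52.9 in shMed4 #4. At chr11:7194320-7194821 the reads were 268, 285 and 310.1 in NTC, 137, 134 and 141 in #1, and 144, 129 and 132 in #4. Both sites fell to less than 0.5-fold of NTC, with log2 folds of -1.37 and -1.52 at the first and -1.06 and -1.09 at the second, and the hairpins overlapped each other. At chr11:7174888-7175389, inside Adcy1, which encodes an adenylyl cyclase, reads were 249, 285 and 277 in NTC, 119, 108 and 102 in #1, and 127, 157 and 206 in #4.

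Upstream of Igfbp3, the hairpins were called in opposite directions at 2 of the 7 peaks, beside 3.17% of all peaks. At chr11:7221940-7222441, 8.27 kb upstream of the start, the reads were 579.5, 617 and 551 in NTC, 820.3, 837 and 898 in shMed4 #1, and 483, 486 and 437 in shMed4 #4. NTC lay between the hairpins without overlap, and the hairpins differed by -0.86 (SE 0.07, adjusted p = 1.49e-12, limma). The peak chr11:7234120-7234621 showed the same order, with 728, 692 and 704 reads in NTC, 880.3, 886 and 791 in #1, and 604, 547 and 462 in #4, and a difference of -0.67 (SE 0.08, adjusted p = 3.15e-09, limma). In contrast chr11:7239091-7239592 rose with both, from 1672, 1690.3 and 1680.5 reads in NTC to 3268, 3118 and 3183 in #1 and 2357, 2431 and 2378 in #4. Another 2 upstream peaks, added after their values were seen, moved alike with both hairpins: chr11:7226630-7227131 rose, at log2 folds of 0.53 and 0.48, and chr11:7235108-7235609 fell, at -0.67 and -1.04. The strongest Igfbp3 peak, chr11:7237696-7238197, held 4347 to 5063 reads over all 9 libraries, was not called in any comparison and overlapped between groups.

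Igfbp2 and Igfbp5 lie side by side on chromosome 1, at chr1:72824480-72852474 on the plus strand and chr1:72858065-72874865 on the minus strand, and the raised peaks lay on the Igfbp2 side. Of the 6 peaks upstream of or inside Igfbp2, 5 were called higher with the hairpins averaged, beside 27.9% of all peaks. Of these 5, 4 were called higher with each hairpin, beside 17.6% of all peaks. Of the 5 peaks beyond Igfbp2, 3 of which lie in the Igfbp5 gene body, 0 were called with the hairpins averaged and 1 was called lower with #4. The difference between the sides was not itself tested.

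The largest change near Igfbp2 was inside the gene, at chr1:72839357-72839858, with 105, 102 and 89.2 normalised reads in NTC, 166, 189 and 201 in shMed4 #1, and 197, 185 and 198 in shMed4 #4. The site 2.94 kb upstream of the gene, chr1:72821285-72821786, held 167, 164 and 134 reads in NTC, 258, 271 and 289 in #1, and 252, 247 and 209.9 in #4. Both rose without overlap, to between 1.52-fold and 1.96-fold of NTC. Farther upstream, chr1:72798437-72798938 held 282, 304 and 294 reads in NTC, 427, 480.2 and 449 in #1, and 399.6, 356 and 358 in #4. Between the genes, chr1:72854820-72855321 held 216 to 235 reads in all 9 libraries, with log2 folds of -0.03 (SE 0.10) and -0.01 (SE 0.10).

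Summed over each window, the reads gave a total for each of the 8 genes, to which strong peaks add most. The Pappa window held 1436, 1521 and 1406 normalised reads in NTC, 4362, 4458 and 4286 in shMed4 #1, and 4757, 4524 and 4218 in shMed4 #4. This was 3.00-fold and 3.09-fold of NTC, and the hairpins overlapped. The Pappa2 window held 4333, 4329 and 4170.0 in NTC, 11619.6, 11492 and 10907 in #1, and 9899, 9338 and 9284 in #4, or 2.65-fold and 2.22-fold of NTC, with #4 below #1. The other windows moved less.

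The Igfbp2 window was 1.28-fold and 1.21-fold of NTC with #1 and #4, above NTC in all 6 libraries, and the Igfbp5 window, all shared with it, was 1.18-fold and 1.12-fold. The Igfbp4 window was 0.860-fold and 0.811-fold and the Stc1 window 0.877-fold and 0.888-fold, both below NTC in all 6. The Stc2 window held 2872, 2849 and 2713 reads in NTC, 3561, 3358 and 3530 in #1, and 2846, 2927 and 2932 in #4, or 1.24-fold and 1.03-fold of NTC. Its #1 libraries lay above NTC and its #4 libraries overlapped NTC. The Igfbp3 window held 10499.9, 11024 and 10562 reads in NTC, 12079, 11757 and 11994 in #1, and 10093, 10047 and 10483 in #4, or 1.12-fold and 0.954-fold. Here all #1 libraries lay above NTC and all #4 libraries below it. Strong peaks weigh most in these sums. In the Igfbp3 window chr11:7239091-7239592 alone went from a mean of 1681 reads in NTC to 3190 in #1. Of the 17 peaks of that window, 8 were called lower and 3 higher with the hairpins averaged. In the Stc2 window chr11:31382070-31382571 went from 2002 in NTC to 2609 in #1, and in the Stc1 window chr14:69088984-69089485 from 825 to 682. With windows of 10 kb in place of 50 kb the averaged log2 ratio of Stc2 turned from 0.18 to -0.36 and that of Igfbp5 from 0.20 to -0.10. Windows of different length and peak number give sums that are not levels to compare between genes.

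**Figure D5:**
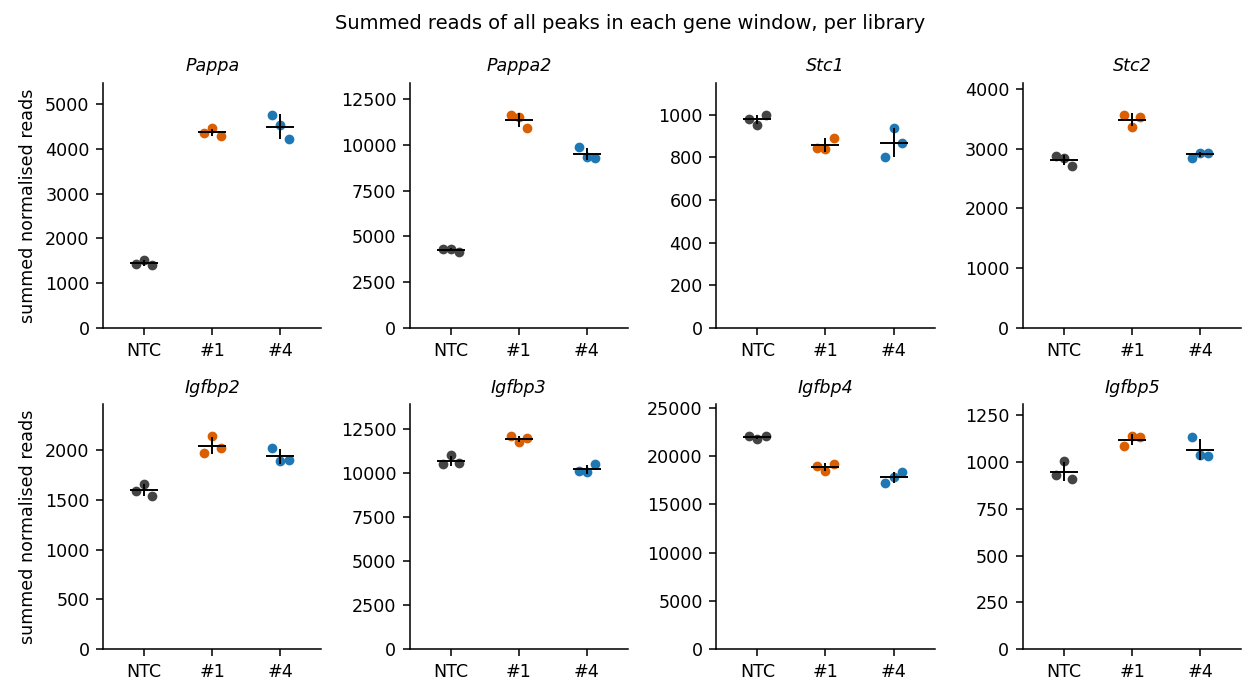
Summed normalised reads of all peaks in each gene window; points are libraries, and bars and whiskers are the mean and SD of 3 libraries per group, on axes that start at 0. Pappa goes from 1454 (SD 59.8) in NTC to 4369 (SD 86.6) and 4499 (SD 270), and Pappa2 from 4278 (SD 93.2) to 11339.7 (SD 380) and 9507 (SD 341).

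The rest of the IGF pathway was mixed. Of 31 other ligands, receptors, binding proteins, proteases and signalling genes, 24 had a peak within 1 kb of an end. With the hairpins averaged 4 of these were called higher, 8 lower and 12 not called, with a median log2 fold of -0.06, beside -0.11 over all gene-end peaks, of which 9.98% were called higher and 45.7% lower. With centring on gene-end peaks, which moves the median of all peaks from -0.02 to 0.09, the split became 7 higher and 4 lower, beside 20.3% and 22.0% of gene-end peaks.

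Grb14, which encodes an adaptor that binds the insulin receptor, had the largest change, from 30.4 (SD 5.34) normalised reads in NTC to 223 (SD 1.43) with #1 and 283 (SD 29.8) with #4, a log2 fold of 3.02 (SE 0.13). Igfbp7, a low-affinity IGF-binding relative, fell by 0.87 (SE 0.15) on the log2 scale, from 139.9 (SD 9.19) to 72.8 (SD 11.01) and 79.6 (SD 7.37). Ptpn1, a phosphatase that acts on the insulin receptor, fell by 0.36 (SE 0.05), and Akt1, a kinase downstream of it, by 0.31 (SE 0.04). Igfbpl1, an Igfbp-like gene, rose by 0.35 (SE 0.14) with the hairpins averaged and with #1, and was not called with #4. The IGF-1 receptor gene Igf1r, added after its values were seen, was called lower at its start with the hairpins averaged, at -0.16 (SE 0.06), while 21 of the 52 peaks in its 50-kb window were higher with each hairpin and 1 was lower.

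Stc2 was the only member for which genes of like pattern could be sought at a gene-end peak. Over the 9 libraries, with each gene set to its own NTC mean, the closest of 12,056 genes were Rapsn, at a distance of 0.47 in log2 units, and Cyp4f37, at 0.50. Rapsn went from 291 (SD 1.07) normalised reads in NTC to 159 (SD 21.5) and 172 (SD 32.3). Cyp4f37 went from 111 (SD 4.53) to 64.0 (SD 8.72) and 55.9 (SD 19.3).

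Libraries held 44.8 to 98.9 M reads in peaks, with medians of 110 to 247 reads per peak, and the shallowest was a shMed4 #4 library. Of the markers read at a gene-end peak, mesenchymal genes had a peak in 4 of 5 cases (186 to 4155 reads in NTC), epithelial genes in 1 of 7 (Krt18, at 164), fibroblast genes in 1 of 4, immune genes in 3 of 5, endothelial genes in 1 of 4 and adipocyte genes in 0 of 2. Epcam, Cdh1, Ptprc and Pecam1, which define epithelial, immune and endothelial cells, had none. The summed mesenchymal level went from 9537 reads in NTC to 7976 and 8143 with #1 and #4. Within it Vim fell from 4155 to 3072 and 3085 and Snai2 was also called lower, while Fn1 and Zeb1 were not called. Krt18 rose from 164 to 368 and 465, and the endothelial marker Cdh5 from 239 to 433 and 282. The immune markers Cd68 and Csf1r were called lower with the hairpins averaged. The part of these markers in the changes around the members was not tested.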

How the data were processed

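The authors deposited a normalised signal for each 501-bp peak: read counts scaled with DESeq2, going by the file's name. Trim Galore, BWA, MACS2, Subread and featureCounts, and mm10 and GRCm38, are listed in the submitters' processing notes; how libraries were combined for peak calling is not given in the sources. In each of the 9 columns 100% of values were whole multiples of a step, within 0.0001 of a read, so whole reads were recovered for the count alternatives. Peak coordinates follow the deposited names, which do not say if counting starts from 0.

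All 146,729 peaks with a mean of at least 10 (5 removed) entered a limma 3.58.1 trend fit in R 4.3.3, on log2 of the value plus 1, with a mean for each of 3 groups of 3 libraries. Log2 folds are on that scale, which understates changes of low peaks. Calls used a Benjamini-Hochberg adjusted p under 0.05. The p-values reflect only how these libraries vary, which may be technical. Library pairs of a group gave a chi-square of 1.99 to 2.92 per degree of freedom on recovered reads, more than sampling noise, and none was merged. The fit was tested on simulated data. Alternatives were edgeR 4.0.16 and DESeq2 1.42.0 on recovered reads, other pseudocounts, filters and scalings, a stricter threshold, a replicate block, narrower windows and each library left out. Genes, starts and promoters came from RefSeq tables of GRCm38.p6; no genome sequence was used here, so peak sequences, exons and introns are not given. Other software was numpy 2.4.6, pandas 2.3.3 and matplotlib 3.10.9 in Python 3.11.15 and, in R, the data.table package (1.17.8).

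The members, the list of other pathway genes and the markers were chosen with earlier results of these data known. Named for each member were the gene-end peak, the peak of highest mean, and the 3 largest averaged changes among peaks called alike with each hairpin at a mean of 50 or more. Over all members the 5 lowest p between the hairpins were added, and from the pathway list the 5 largest called changes. Those 5 peaks were chr1:158917054-158917555, chr11:31403949-31404450, chr11:7221940-7222441, chr11:7234120-7234621 and chr11:7239091-7239592. Their p for #4 against #1 picked them, so it only describes them.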

Additional observations from a re-analysis of the deposited data

Results flagged for a closer look

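At 15 of the 28 named peaks the effects of the hairpins against NTC differed from each other, by the limma test of shMed4 #4 against shMed4 #1 with Benjamini-Hochberg adjustment over all peaks. This comparison called 41.6% of all peaks. Some of the 28 peaks had been named only for their low p in this same comparison, and all of those are among the 15. The count of 15 is raised by that choice, so it cannot be read as an excess over the 41.6%. Values are log2 differences, #4 minus #1, and groups of 3 libraries are too small for a test of single outlying libraries.

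Around Pappa the difference was -0.34 at chr4:65078313-65078814, 0.23 at chr4:65159498-65159999 and 1.00 at chr4:65242598-65243099. Around Pappa2 it was -1.07 at chr1:158817938-158818439 and -0.92 at chr1:158917054-158917555. Around Stc2 it was -0.29 at chr11:31382070-31382571 and -1.06 at chr11:31403949-31404450, and around Igfbp2 -0.28 at chr1:72798437-72798938.

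Around Igfbp3 the difference was 0.55 at chr11:7174888-7175389, -0.86 at chr11:7221940-7222441, -0.67 at chr11:7234120-7234621 and -0.42 at chr11:7239091-7239592. Around Igfbp4 it was 1.41 at chr11:99052615-99053116, 1.01 at chr11:99054533-99055034 and 0.26 at chr11:99080795-99081296. At 3 of these 15 peaks, 1 around Stc2 and 2 around Igfbp3, the hairpins were called in opposite directions against NTC.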

How the results depend on the processing

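Of the main counts and window sums under the alternatives, 198 stayed within 1.5 times or 1 SD of the reported value and 10 moved. At an adjusted p under 0.01, 21 peaks were lower with #4 than with #1, against 32. With windows of 10 kb fewer peaks enter. The averaged log2 ratios of summed reads were then 1.54 for Pappa, -0.41 for Stc1, -0.36 for Stc2 and 0.47 for Igfbp2. They were 0.12 for Igfbp3, -0.39 for Igfbp4 and -0.10 for Igfbp5. The Stc1 value comes from 1 peak, chr14:69024141-69024642, at log2 folds of -0.17 with #1, not called, and -0.65 with #4. Those of Stc2 and Igfbp2 come from 3 peaks each. With centring on gene-end peaks, 7 pathway genes were called higher and 4 lower; the cause was not tested. Leaving out each library in turn gave 54 to 59 peaks higher and 28 to 36 lower with the hairpins averaged, and 15 to 21 higher and 23 to 32 lower for #4 against #1. Across the alternatives that keep the 50-kb windows 16 to 18 Pappa and 24 to 26 Pappa2 peaks were higher with each hairpin, and windows of 10 kb held 11 Pappa and 23 Pappa2 peaks, all higher with each. A fit on only the groups compared gives no separate value for the averaged comparison, which uses all groups.

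Same-numbered libraries deviated together by correlations of -0.01 to 0.07, and other pairs by -0.10 to 0.04. The highest values were between shMed4 #1 and #4, at 0.07 for replicate 1 and 0.05 for replicate 3. With 3 libraries per group these values cannot settle whether the numbers pair the libraries, and the main fit used no pairing. With the replicate block 58 peaks were higher and 35 lower with the hairpins averaged, and 20 and 31 for #4 against #1.

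Of single named peaks, 2465 values kept direction and side of the threshold, 32 lost the call, 18 gained one and 33 changed sign, all of these near 0. With centring on gene-end peaks chr1:72854820-72855321 was at 0.084 for the averaged hairpins, 0.071 for #1 and 0.0969 for #4, and at 0.000703 for #4 by edgeR. The Igfbp3 peak chr11:7194320-7194821 was at 0.00767 with equal totals and 0.0197 with chromosome medians removed for #4 against #1. With the averaged hairpins chr11:7234120-7234621 was at 0.0381 with gene-end centring and 0.0202 with chromosome medians removed. Under the same settings chr11:7237696-7238197 was at 0.0577 and 0.0398 averaged, 0.085 and 0.0489 for #1, and 0.0304 and 0.0308 for #4. For #4 against #1 chr11:99076737-99077238 was at 0.0296 with equal totals, 0.00152 with TMM, 0.00491 with gene-end centring, 0.0414 with chromosome medians removed and 0.00102 by edgeR.

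Leaving out single libraries, the #4 against #1 difference ranged from -0.256 to 0.0797 at chr11:31368356-31368857, -0.367 to 0.0592 at chr11:31369245-31369746, -0.013 to 0.124 at chr1:72839357-72839858, -0.00767 to 0.042 at chr1:72854820-72855321, -0.271 to 0.077 at chr11:7185276-7185777, -0.0687 to 0.00709 at chr11:7194320-7194821 and -0.0404 to 0.0304 at chr11:99076737-99077238. Against NTC the range was -0.0403 to 0.00385 for #4 at chr1:72854820-72855321 and -0.035 to 0.0112 for #1 at chr11:7237696-7238197.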

Other observations

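Other genes of the IGF pathway showed changes away from their ends, read over the same 50-kb windows and singled out here after their values were seen. Over all peaks, 17.6% were called higher with each hairpin and 13.5% lower. In the window of Akt1, a kinase downstream of the insulin and IGF receptors, 22 of 30 peaks were lower with each hairpin and 0 higher. In that of Ptpn1, a phosphatase of the insulin receptor, 19 of 34 were lower and 0 higher. Adam12, another protease reported to cut IGF-binding proteins, had 17 of 42 peaks higher and 1 lower. Socs2, a suppressor of growth hormone signalling, had 10 of 19 higher and 2 lower. Insr, the insulin receptor gene, had 9 of 25 higher and 0 lower, and Grb14 had 6 of 10 higher and 0 lower. Neighbouring genes share these windows, and no test was made of any list.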
